A study of Mus musculus with 18 samples.

Results

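The transcripts of 10 neutrophil granule and antimicrobial proteins were followed in stem and progenitor cells of mouse bone marrow. The genes, taken by symbol from the tables of 3 progenitor populations, were *Mpo*, *Elane*, *Prtn3* and *Ctsg* of the azurophil granules, *Ltf*, *Camp*, *Ngp* and *Lcn2* of the specific granules, and *S100a8* and *S100a9*. All 10 were listed in every table, out of 19919 genes listed in at least 1 of them. Multipotent progenitors (MPPs), CD115- common dendritic cell progenitors (CD115- CDPs) and common lymphoid progenitors (CLPs) had been sorted by flow cytometry from bone marrow cells negative for lineage markers, Ly6G and CD11b among them. Each population had 3 wild-type (WT) libraries, from Trim33fl/fl mice without Cre, and 3 libraries labelled knockout (KO), from Trim33fl/fl Cre-ERT2 mice, making 18 libraries. All mice were C57BL/6, aged 6 to 8 weeks, carried the floxed allele and received tamoxifen, 2 mg a day for 5 days, and cells were taken 7 days after that. Cre-ERT2 was not restricted to a cell type, so *Trim33* was a target for deletion in the whole animal and not in the sorted cells alone. WT and KO below are the labels of the libraries, and how many animals went into each library is not given in the sources used here.

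Neutrophils pack their antimicrobial proteins into granules that are filled in turn as the cells mature. Azurophil granules are filled first, at the promyelocyte stage, with myeloperoxidase (*Mpo*) and the serine proteases neutrophil elastase (*Elane*), proteinase 3 (*Prtn3*) and cathepsin G (*Ctsg*), and the transcripts of these proteins are already found in early myeloid progenitors. Specific granules are filled later, at the myelocyte stage, with the iron-binding protein lactoferrin (*Ltf*), the cathelicidin precursor (*Camp*), the cystatin-related neutrophilic granule protein (*Ngp*) and lipocalin 2 (*Lcn2*), which binds bacterial siderophores. S100A8 and S100A9 form calprotectin, an abundant metal-binding complex of the neutrophil cytosol, so these 2 are not granule proteins although they were followed with them. MPPs, CDPs and CLPs lie upstream of or beside the neutrophil lineage and are not where specific granule proteins are usually made.

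Several of the genes are neighbours. *Prtn3* and *Elane* lie on chromosome 10 of GRCm38, the build of mm10, with 3.14 kb between them, and *S100a8* and *S100a9* lie on chromosome 3 with 22.6 kb between them. *Camp*, *Ngp* and *Ltf* share chromosome 9, separated by 570.4 kb and 596.3 kb. *Lcn2*, *Mpo* and *Ctsg* stand on chromosomes 2, 11 and 14. The promoters of 5 members, at least 1 from each class, are printed here because the classes behaved differently between the libraries. Each is the 250 bases before the annotated start of transcription in the RefSeq annotation of GRCm38.p6, read 5′ to 3′ on the strand of the gene, which is the plus strand for all 5, and capitals mark matches to the 3 motifs named after them. *Mpo* is at chr11:87793534-87793783, *Elane* at chr10:79886062-79886311, *Ltf* at chr9:111019042-111019291, *Ngp* at chr9:110419558-110419807 and *S100a8* at chr3:90668821-90669070.
Mpo: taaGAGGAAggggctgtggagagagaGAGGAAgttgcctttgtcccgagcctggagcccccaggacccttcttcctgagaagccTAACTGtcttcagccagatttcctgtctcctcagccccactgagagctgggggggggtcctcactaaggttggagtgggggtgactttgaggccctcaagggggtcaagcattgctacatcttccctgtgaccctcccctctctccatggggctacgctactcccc
Elane: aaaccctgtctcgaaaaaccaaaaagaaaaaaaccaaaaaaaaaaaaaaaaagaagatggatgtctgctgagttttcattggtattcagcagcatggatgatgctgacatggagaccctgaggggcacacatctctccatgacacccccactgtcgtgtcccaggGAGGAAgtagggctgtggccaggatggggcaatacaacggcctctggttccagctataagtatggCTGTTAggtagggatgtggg
Ltf: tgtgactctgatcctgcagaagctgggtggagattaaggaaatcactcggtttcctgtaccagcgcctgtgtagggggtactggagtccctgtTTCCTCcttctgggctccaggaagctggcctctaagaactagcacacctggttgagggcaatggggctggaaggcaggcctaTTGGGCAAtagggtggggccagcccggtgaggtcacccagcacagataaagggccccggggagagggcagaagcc
Ngp: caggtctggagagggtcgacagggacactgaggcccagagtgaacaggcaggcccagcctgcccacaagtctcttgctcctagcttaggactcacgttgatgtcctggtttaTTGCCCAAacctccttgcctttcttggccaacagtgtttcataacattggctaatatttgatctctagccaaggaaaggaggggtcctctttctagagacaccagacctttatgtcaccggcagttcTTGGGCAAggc
S100a8: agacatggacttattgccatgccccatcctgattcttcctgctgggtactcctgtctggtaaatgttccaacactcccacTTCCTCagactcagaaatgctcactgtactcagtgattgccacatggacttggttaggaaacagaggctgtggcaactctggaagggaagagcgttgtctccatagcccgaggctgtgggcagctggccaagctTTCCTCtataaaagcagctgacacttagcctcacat

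The motifs were searched on both strands, as TTNNGCAA for the C/EBP family, GAGGAA for PU.1 and TAACNG for MYB, all of them factors with known roles in granulocyte development. In these 250 bases a C/EBP match was present in 4 of the 10 members, namely *Ltf*, *Ngp*, *Lcn2* and *S100a9*, against 9.56% of all 32851 promoters of the same table. None of the 4 azurophil genes held one, and neither did *Camp* or *S100a8*. A PU.1 match was present in 7 members, *Mpo*, *Elane*, *Prtn3*, *Ctsg*, *Ltf*, *Lcn2* and *S100a8*, against 23.3% of all promoters. A MYB match was present in *Mpo* and *Elane*, against 19.8% of all promoters. *Camp* held none of these letter patterns. With the first 50 transcribed bases added, the same members held each motif and the shares of all promoters were 10.8%, 28.3% and 23.3%. These are matches of fixed letter patterns, so sites that depart from the patterns are missed, and binding was not measured here.

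Values are FPKM, that is, fragments scaled to the length of the transcript and to the mapped fragments of the library. Levels may thus be compared between genes. Comparing libraries of a table also takes their make-up as alike, which FPKM does not ensure. Summed FPKM ran from 448367 to 588035 over the libraries. The steps between the values of lowly expressed genes placed the depth at about 19.2 to 21.2 M reads per library, so that a single read over 1 kb of transcript corresponded to 0.0472 to 0.0521 FPKM. The lowest value of any member, 2.5 FPKM for *Ltf*, was far above this. *Trim33*, the gene deleted, had 10.42, 10.12 and 8.78 FPKM in WT MPPs against 9.71, 11.66 and 4.80 in the libraries labelled KO, so KO 1 and KO 2 of this population were not below the WT range. It was 14.30, 15.23 and 8.27 against 9.64, 8.28 and 4.03 FPKM in CD115- CDPs and 12.36, 7.01 and 8.86 against 7.52, 5.60 and 7.66 FPKM in CLPs. If the deletion leaves exons that can still be counted, the value of the whole gene checks the labels only weakly. Reads of single exons were not examined here, and the cause of these *Trim33* values was not tested. *Csf1r*, which encodes CD115, was 39.11 to 136.77 FPKM in the WT CD115- CDPs, above its 13.23 to 15.61 FPKM in WT MPPs, although the gate was negative for the protein. *Itgam*, which encodes CD11b, was 21.22 to 23.78 FPKM in WT MPPs. In CD115- CDPs both libraries numbered 3 stood apart from the other 4, with *Cebpa* at 77.86 and 75.44 FPKM against 16.61 to 31.21.

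All 10 members were expressed in every library, at levels from 2.5 FPKM for *Ltf* in KO 1 of CLPs to 2117.18 FPKM for *Mpo* in KO 3 of CD115- CDPs. In WT MPPs the level was highest for *S100a9*, at 766 ± 64.5 FPKM (SD, n = 3, as in all such values), and it was 674 ± 71.3 for *Mpo* and 658 ± 51.9 for *S100a8*. The other WT MPP levels ran from 468 ± 4.77 FPKM for *Ngp* and 331 ± 7.16 for *Prtn3* down to 128 ± 1.80 for *Ltf* and 110 ± 3.55 for *Ctsg*. Together the 10 transcripts made up 0.694% to 0.735% of all FPKM in WT MPPs, 0.314% to 0.491% in KO-labelled MPPs and 0.086% to 0.217% in WT CLPs.

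**Figure D1:**
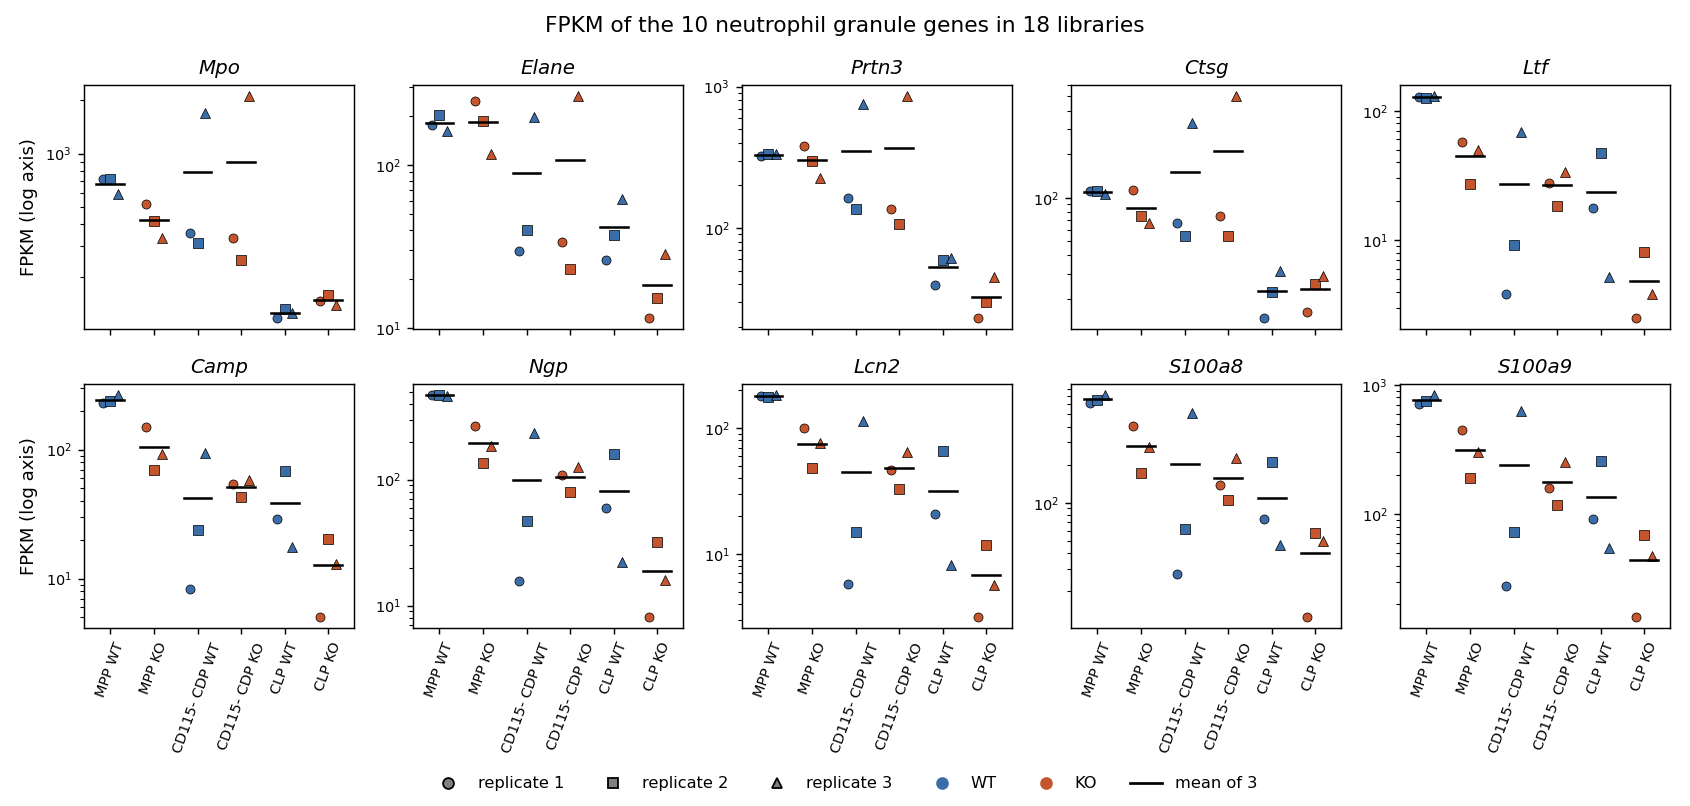
FPKM of each of the 10 genes (log axis) in WT (blue) and KO-labelled (orange) libraries of MPPs, CD115- CDPs and CLPs, with the marker shape giving the replicate number and the line the mean of 3. The 6 genes from Ltf to S100a9 share 1 profile, highest in WT MPPs, while Mpo, Prtn3 and Ctsg are highest in both CD115- CDP libraries numbered 3 and Elane is highest in KO 3 of them, followed by KO 1 of MPPs.

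The order of the 6 groups separated the azurophil genes from the rest. The 4 specific granule genes and both S100 genes had their highest mean in WT MPPs, above and apart from KO-labelled MPPs, and their lowest in KO-labelled CLPs. Their WT MPP mean was 4.04 to 5.80 times that of WT CD115- CDPs for the specific granule genes, 3.27 and 3.17 times for *S100a8* and *S100a9*, and 5.47 to 6.35 times that of WT CLPs over the 6 genes. From the second to the last place neighbouring groups overlapped in range for *Ltf*, *Lcn2*, *S100a8* and *S100a9*, and for *Camp* and *Ngp* KO-labelled MPPs also stood apart from the next group. *Mpo*, *Prtn3* and *Ctsg* had their highest means in CD115- CDPs, KO-labelled before WT, but those ranges overlapped that of WT MPPs. *Elane* was highest in KO-labelled and WT MPPs, at 184 ± 65.3 and 180 ± 21.3 FPKM, which overlapped. In CLPs *Mpo* was at 124 ± 7.24 FPKM in WT, near *S100a9* at a mean of 135.3 FPKM, and at 147 ± 9.04 FPKM in KO-labelled libraries, where *S100a9* had a mean of 44.3 FPKM. The 2 CLP groups were apart for *Mpo* alone among the members, with KO-labelled CLPs the higher. These levels come from separate tables and were not tested between populations.

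The first comparison was of WT and KO-labelled MPPs, the most upstream of the populations. The 4 specific granule genes fell to about 0.339 to 0.408 of their WT level in KO-labelled MPPs, and all 4 were called. *Ltf* was 127.03, 126.48 and 129.84 FPKM in WT against 57.23, 27.29 and 49.64 in KO-labelled libraries. *Ngp* was 470.03, 471.56 and 462.64 against 269.02, 134.32 and 183.53 FPKM. The WT libraries were nearly level and the KO-labelled ones spread widely, with KO 2 the lowest and KO 1 the highest, and the groups did not overlap. *Lcn2* was 179.46, 177.03 and 184.63 against 99.89, 48.12 and 76.31 FPKM, and *Camp* was 230.25, 236.65 and 266.22 against 149.42, 69.57 and 93.21 FPKM, again without overlap and in the same order of KO-labelled libraries. On log2(FPKM + 1), which hardly compresses genes at these levels, the change was -1.56 ± 0.26 (SE) for *Ltf* with an adjusted p of 0.0288 (limma, Benjamini-Hochberg over 12372 genes). It was -1.31 ± 0.23 for *Ngp*, -1.32 ± 0.24 for *Lcn2* and -1.29 ± 0.26 for *Camp*, with limma adjusted p of 0.0354, 0.0397 and 0.0494. A gene was called at an adjusted p of at most 0.05 with at least a 2-fold change, and 1.32% of all tested genes were called lower in KO-labelled MPPs. Fewer cells carrying these transcripts and less of them per cell cannot be told apart in such libraries.

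*S100a8* and *S100a9* had changes of the same size that missed the threshold. *S100a9* was 714.68, 744.54 and 838.31 FPKM in WT MPPs against 450.29, 190.94 and 304.22 in KO-labelled ones. *S100a8* was 610.81, 648.72 and 713.36 against 401.18, 170.52 and 278.17 FPKM. For both genes every KO-labelled library was below every WT library, again with KO 2 the lowest. The log2 changes were -1.36 ± 0.29 and -1.29 ± 0.29 (SE), with limma adjusted p of 0.0559 and 0.0616.

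The azurophil genes did not move as a group in MPPs. *Mpo* was 718.07, 713.07 and 592.13 FPKM in WT against 514.41, 412.02 and 332.78 in KO-labelled libraries, which did not overlap, with a log2 change of -0.70 ± 0.17 and a limma adjusted p of 0.0743. *Elane* was 175.13, 203.53 and 161.87 against 246.96, 187.06 and 116.51 FPKM, so the KO-labelled libraries lay on both sides of the WT range. The log2 changes of *Elane*, *Prtn3* and *Ctsg* were -0.03 ± 0.26, -0.16 ± 0.18 and -0.40 ± 0.19, with 95% intervals of -0.66 to 0.59, -0.60 to 0.27 and -0.85 to 0.05. Of the 10 members 7 had every KO-labelled library below every WT library, where 23.3% of all tested genes did. The median change of the 4 specific granule genes was -1.32, that of the 4 azurophil genes -0.28, and that of all tested genes -0.11. Scaling by median ratios removed the general shift, to a median of 0.00 over all genes. *Elane* then turned to 0.09, the groups of *Mpo* overlapped, and *Ltf* alone was called, at -1.44 with a limma adjusted p of 0.0392, while *Ngp* and *Lcn2* had 0.0556 and *Camp* 0.073. The calls also depended on which library was left out. None of the 10 was called after any 1 of the 3 WT libraries was left out, 2 without KO 2 (*Ltf* and *Lcn2*), and 6 without KO 1 or without KO 3, when *S100a8* and *S100a9* joined the 4.

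**Figure D2:**
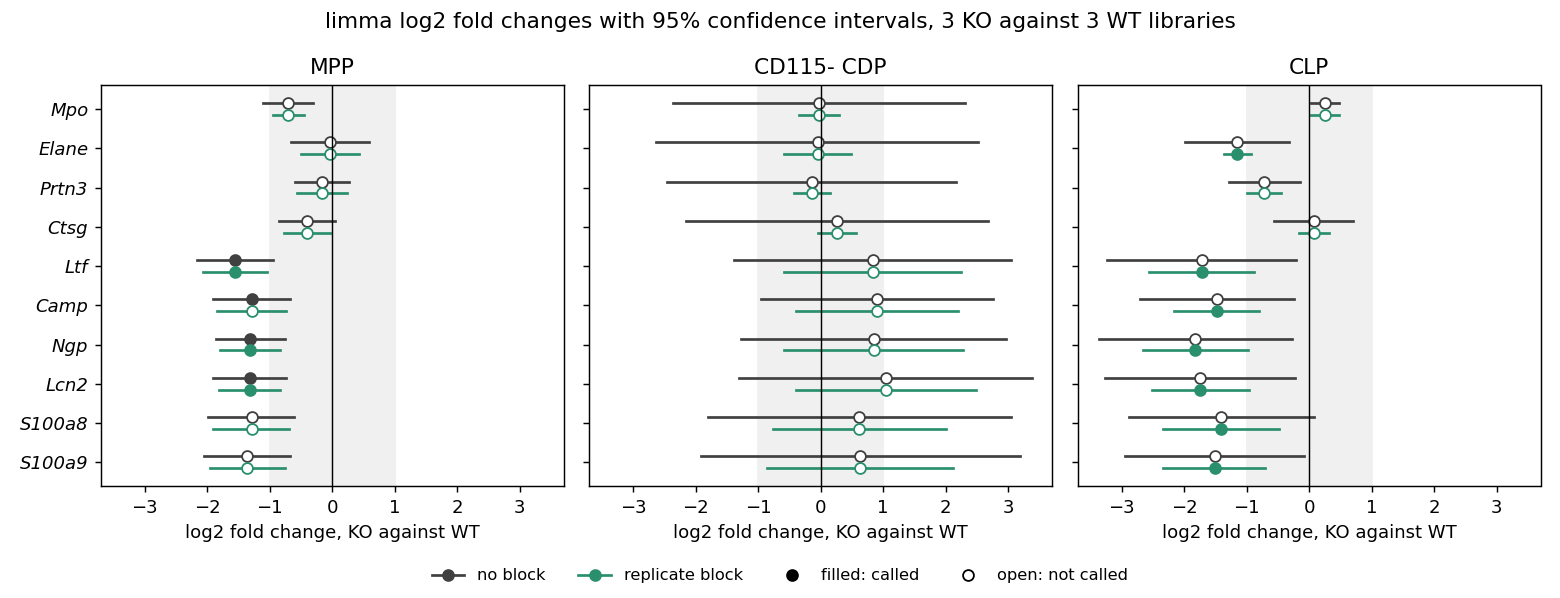
Log2 fold change of each gene, KO-labelled against WT, in MPPs, CD115- CDPs and CLPs, with 95% confidence intervals from limma without (grey) and with (green) the replicate number as a block; filled points were called and the shaded band marks changes under 2-fold. The 6 genes from Ltf to S100a9 lie between -1.29 and -1.56 in MPPs and between -1.41 and -1.82 in CLPs, whereas in CD115- CDPs their intervals are wide and span 0.

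In CLPs the specific granule and S100 transcripts were again lower in KO-labelled libraries on average, but the WT libraries differed so much among themselves that the call depended on pairing libraries of the same number. *Ngp* was 59.60, 159.74 and 22.17 FPKM in WT CLPs 1, 2 and 3 against 8.12, 32.18 and 16.00 in KO-labelled CLPs 1, 2 and 3. *Ltf* was 17.84, 47.14 and 5.15 against 2.5, 8.08 and 3.87 FPKM, and *Lcn2* was 20.79, 65.53 and 8.16 against 3.16, 11.77 and 5.65 FPKM. Library 2 was the highest of its group for all 3 genes in both genotypes, and the groups overlapped because WT 3 lay below KO 2. *Camp* was 29.06, 68.63 and 17.68 against 5.05, 20.44 and 12.95 FPKM. *S100a9* was 92.35, 258.90 and 54.80 against 16.01, 69.15 and 47.76 FPKM, and *S100a8* was 73.99, 209.13 and 46.17 against 12.50, 57.09 and 49.81 FPKM. Within a number the KO-labelled library was the lower in all 3 pairs for 5 of these 6 genes. The exception was *S100a8*, whose ratio of KO to WT was 0.169, 0.273 and 1.08 in pairs 1, 2 and 3. The difference was large in pairs 1 and 2, where *Ngp* stood at 0.136 and 0.201 of WT, and small in pair 3, where it stood at 0.722.

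Without the block none of the 10 members was called in CLPs, where 2.84% of all tested genes were called lower, and limma adjusted p ran from 0.109 to 0.188 over the 6 specific granule and S100 genes. At an unadjusted p under 0.05, 7 of the 10 were lower, against 2003 of all 12339 tested genes, and *Mpo* was higher. With the replicate number as a block 7 of the 10 were called lower, beside 3.11% of all tested genes. The changes were -1.82 ± 0.36 for *Ngp*, -1.74 ± 0.34 for *Lcn2*, -1.72 ± 0.36 for *Ltf* and -1.48 ± 0.29 for *Camp*, with blocked limma adjusted p of 0.0107, 0.00933, 0.0132 and 0.0108. They were -1.51 ± 0.35 and -1.41 ± 0.40 for *S100a9* and *S100a8*, with blocked limma adjusted p of 0.02 and 0.0415. When both libraries of 1 number were left out, which was decided with these values in view, the blocked fit called 6, 6 and 7 members without numbers 1, 2 and 3. Without the block, leaving out single libraries gave between 0 and 3 called members. Without WT 3 they were *Ltf*, *Ngp* and *Lcn2*, and without WT 1 or without KO 3 the only one was *Elane*.

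*Elane* was the azurophil gene called in CLPs in the blocked fit. It was 25.98, 37.03 and 61.70 FPKM in WT CLPs 1, 2 and 3 against 11.46, 15.14 and 28.22 in KO-labelled ones. Its ratio of KO to WT was 0.441, 0.409 and 0.457 in the 3 pairs, the most even ratio of the called members, although the groups as such overlapped slightly. The log2 change was -1.15 ± 0.36 with a limma adjusted p of 0.0692 without the block, and -1.15 ± 0.10 with 0.000139 in the blocked fit. *Prtn3*, its neighbour on chromosome 10, was 39.36, 59.02 and 61.64 against 23.03, 29.72 and 44.83 FPKM. It was lower in each pair, by -0.72 ± 0.12 with a blocked limma adjusted p of 0.00435, less than the 2-fold change required for a call. *Mpo* and *Ctsg* did not follow. *Mpo* was 116.65, 131.12 and 123.97 FPKM in WT against 146.07, 157.05 and 139.12 in KO-labelled CLPs, every KO-labelled library above every WT library, as for 15.3% of all tested genes. Its log2 change of 0.25 ± 0.10 had a limma adjusted p of 0.13, or 0.101 with the block. No member had all 3 KO-labelled CLPs below all 3 WT CLPs, against 18.6% of all tested genes. *Ctsg* had a change of 0.07 with a blocked 95% interval of -0.17 to 0.31.

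**Figure D3:**
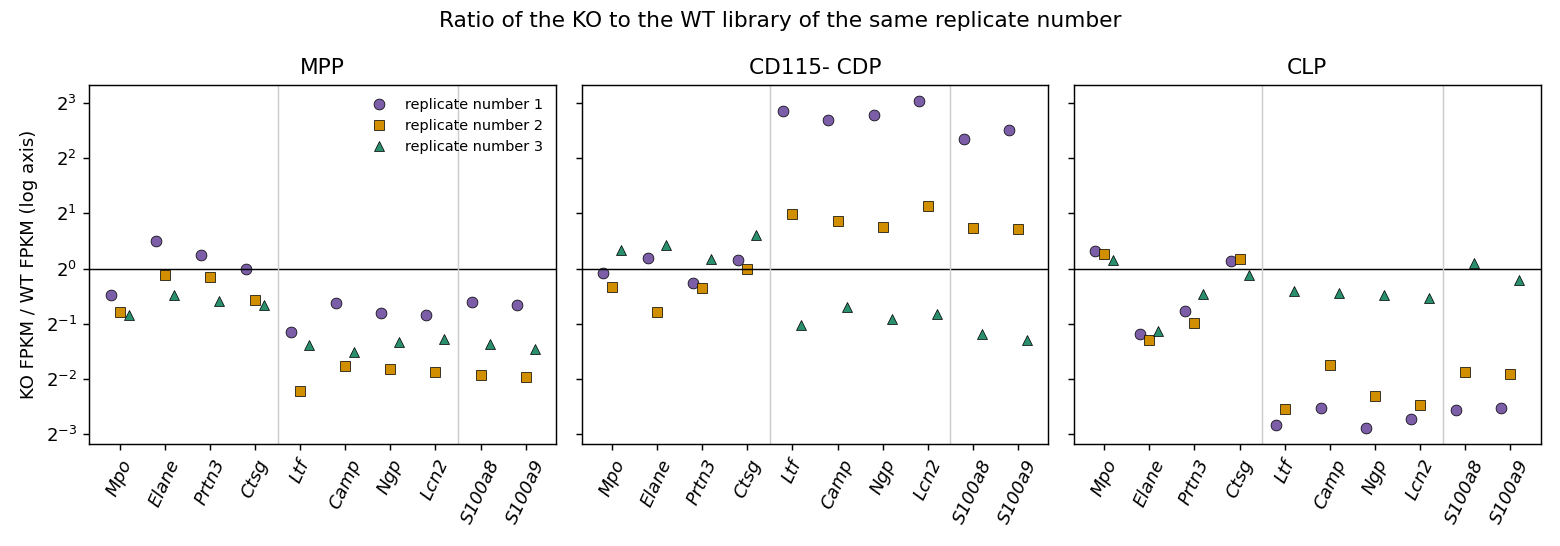
Ratio of the FPKM of the KO-labelled to the WT library of the same replicate number (log axis, 1 marks equality) for each gene in MPPs, CD115- CDPs and CLPs. In CD115- CDPs the 6 genes from Ltf to S100a9 lie above 1 in numbers 1 and 2 and below 1 in number 3, and in CLPs Elane lies at 0.441, 0.409 and 0.457.

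In CD115- CDPs no member differed between the genotypes over all libraries, and the direction of the specific granule and S100 genes depended on the replicate number. *Ngp* was 15.75, 47.18 and 234.72 FPKM in WT CD115- CDPs 1, 2 and 3 against 108.05, 79.73 and 124.91 in KO-labelled ones. *Ltf* was 3.84, 9.16 and 68.00 against 27.87, 18.22 and 33.63 FPKM. *S100a9* was 27.68, 72.33 and 625.27 against 158.73, 118.63 and 254.86 FPKM. The WT libraries thus spread far more widely than the KO-labelled ones, with WT 1 at the bottom and WT 3 at the top of all 6. The ratio of KO to WT was 6.86, 1.69 and 0.532 for *Ngp* in pairs 1, 2 and 3, and 8.18, 2.19 and 0.569 for *Lcn2*. It was above 1 in pairs 1 and 2 and below 1 in pair 3 for all 6 genes of these classes.

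The azurophil genes in CD115- CDPs followed the replicate number. *Mpo* was 352.35, 310.58 and 1686.23 FPKM in WT against 331.57, 247.57 and 2117.18 in KO-labelled libraries. *Elane* was 29.52, 40.05 and 197.99 against 33.67, 23.12 and 265.48 FPKM. Both libraries numbered 3 were thus several times higher than the other 4 in each genotype, and so were those of *Prtn3*, at 759.26 and 858.83 FPKM, and of *Ctsg*, at 330.42 and 503.46 FPKM. The log2 changes of the 10 members ran from -0.14 to 1.04 with limma adjusted p between 0.742 and 0.996 without the block and between 0.228 and 0.901 with it, and no member was called, or had an unadjusted p under 0.05, in either fit. The share of all genes called lower was 0.0654% without and 1.46% with the block. No member had all 3 KO-labelled libraries below all 3 WT libraries, against 10.6% of all tested genes. The blocked intervals were narrow for the azurophil genes, at -0.35 to 0.29 for *Mpo* and -0.43 to 0.15 for *Prtn3*, and wide for the others, at -0.58 to 2.28 for *Ngp*.

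Since both libraries numbered 3 stood apart, CD115- CDPs were also tested without them. This was decided with the values in view and left 2 libraries a group. *Lcn2*, *Ltf* and *S100a8* were then called higher in KO-labelled libraries, at 1.96 ± 0.35, 1.75 ± 0.33 and 1.52 ± 0.32 with limma adjusted p of 0.0282, 0.0325 and 0.0476, beside 0.554% of all tested genes. With the block *Camp* was called as well, at 1.69 ± 0.35 with 0.0473, beside 0.645% of all tested genes. *Ngp* and *S100a9* stood at 1.72 ± 0.39 and 1.59 ± 0.36 with blocked limma adjusted p of 0.0585 and 0.0565. The 4 azurophil genes had changes of -0.30 to 0.09, none of them called. The specific granule and S100 genes thus had positive changes in CD115- CDPs 1 and 2, negative changes in MPPs and CLPs, and ratios under 1 in the CD115- CDPs numbered 3.

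Whether the change differed between the populations was tested over all 18 libraries. In the fit without a block no member had an interaction of population and genotype with a limma adjusted p of at most 0.05, against 2.45% of all tested genes. At unadjusted p only *Camp*, with 0.0438, was under 0.05. The log2 changes of the 4 specific granule genes in CD115- CDPs were 2.16 to 2.39 above those in MPPs, with standard errors of 0.95 to 1.17. When each replicate number within a population was given its own term, *Mpo* had an adjusted p of 0.0166 and was the only member to pass, against 8.67% of all tested genes. This fit also pairs the MPP libraries, of which those numbered 1 hardly deviated together (r = 0.0382). Its change was 0.95 ± 0.17 higher in CLPs than in MPPs, with a limma adjusted p of 0.00695 for that difference in the blocked fit and 0.621 without the block. *Elane* went the other way, 1.12 ± 0.30 lower in CLPs than in MPPs. The blocked limma adjusted p was 0.0364 for that difference and 0.0557 for the test over all populations. In the blocked fit the difference between CLPs and MPPs passed for 1842 of all 12421 tested genes. Without WT 3 of CD115- CDPs the unblocked interaction passed for *Camp*, *Lcn2* and *Ltf*, and for 526 of all 12406 tested genes.

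Several members kept similar proportions in all 18 libraries. The ratio of *S100a9* to *S100a8* lay between 0.959 and 1.28 in all 18 libraries, although *S100a9* itself varied 52.4-fold. The ratio of *Lcn2* to *Ltf* lay between 1.17 and 1.92, and that of *Ngp* to *Camp* between 1.24 and 2.49, although *Lcn2* varied 58.4-fold and *Ngp* 58.1-fold. *Ngp* to *Ltf* lay between 3.25 and 5.15, and *Ngp* to *S100a8*, from different classes, between 0.321 and 0.806. Among the azurophil genes *Mpo* to *Ctsg* varied 2.25-fold, from 3.98 to 8.96, which is close to the 2.02-fold of *Ngp* to *Camp*. The ratios to *Elane* varied more. *Mpo* to *Elane* ran from 2.01 in WT 3 to 12.7 in KO 1 of CLPs, and *Prtn3* to *Elane* from 0.999 in WT 3 of CLPs to 5.53 in WT 1 of CD115- CDPs. *Mpo* to *Prtn3* was 1.76 to 2.22 in WT and 1.34 to 1.48 in KO-labelled MPPs, but 2.01 to 2.96 in WT and 3.10 to 6.34 in KO-labelled CLPs. The ratio moved down with the KO label in MPPs and up in CLPs, without overlap in either. Of the 11 ratios computed *Mpo* to *Ngp* varied most, from 0.821 in WT 2 of CLPs to 22.4 in WT 1 of CD115- CDPs. These ratios are descriptions of 18 libraries and were not tested.

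**Figure D4:**
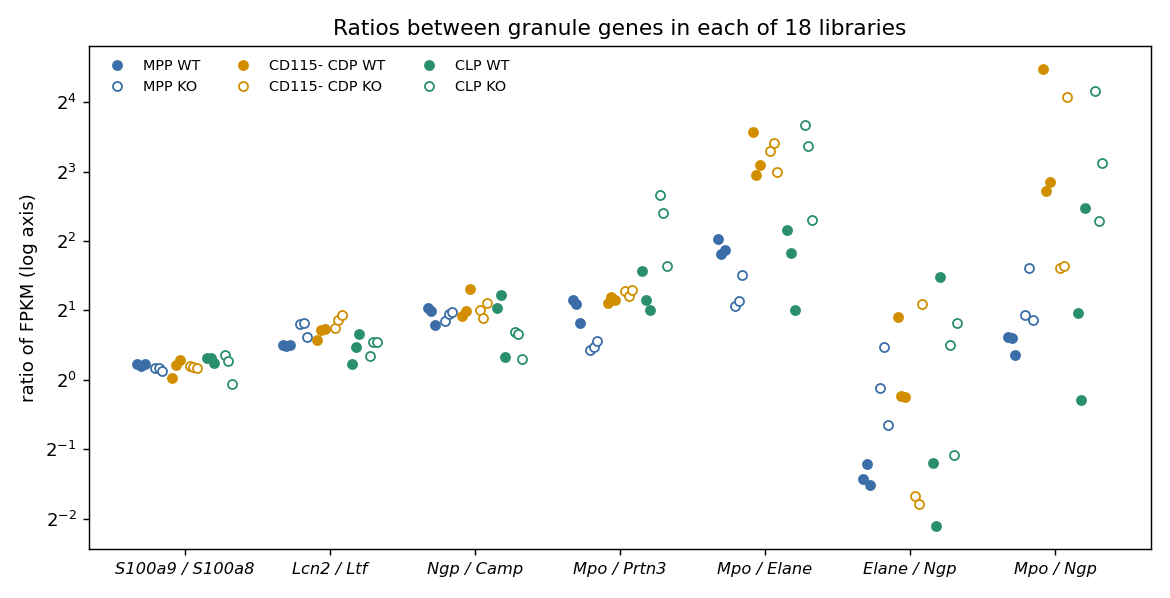
Ratio of FPKM between pairs of granule genes (log axis) in each library, with WT filled and KO-labelled open, coloured by population. S100a9 over S100a8, Lcn2 over Ltf and Ngp over Camp keep to 0.959 to 2.49, while Mpo over Ngp spans 0.821 to 22.4.

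Other genes of the same granules were counted from lists of related genes. Of 14 further specific and gelatinase granule genes all were tested in MPPs, with a median change of -0.69. There 4 were called lower, none higher, beside 1.32% of all tested genes called lower. The 4 were *Cd177*, the surface partner of proteinase 3, the gelatinase *Mmp9*, the chitinase-like gene *Chil3* and *Cybb*, the NADPH oxidase subunit. *Cd177* was 22.81 to 24.64 FPKM in WT against 6.83 to 11.72 in KO-labelled MPPs (-1.27 ± 0.18, limma adjusted p of 0.0206). The collagenase gene *Mmp8* was 16.13 to 18.18 against 4.07 to 8.70 FPKM (-1.23 ± 0.25, 0.0526). *Olfm4*, *Fcnb* and *Adam8* hardly moved in MPPs, at -0.07 ± 0.13, -0.04 ± 0.28 and -0.07 ± 0.21, and their groups overlapped. In CLPs 12 were tested and 3 were called lower without the block, *Cybb*, *Hp* and the protease inhibitor *Slpi*, joined by *Cd177* and *Mmp9* with it. Of all tested genes 2.84% were called lower there without the block and 3.11% with it. *Cybb* was 31.42 to 53.99 FPKM in WT CLPs against 0.77 to 1.33 in KO-labelled ones, and *Slpi* was 31.26 to 42.45 against 4.28 to 5.06 FPKM. Unlike the members, both had a higher WT mean in CLPs than in MPPs. It was 39.72 against 13.05 FPKM for *Cybb* and 35.41 against 16.52 FPKM for *Slpi*. In CD115- CDPs none was called by limma without the block, with 1 under 0.05 at an unadjusted p. With the block 2 were called lower, *Cybb* and *Slpi*, beside 1.46% of all tested genes.

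The azurophil and processing genes outside the 10 moved less. Of 10 listed, 9 passed the filter on expression in MPPs and 1 was called lower, *Lyz2*, beside 1.32% of all tested genes. *Lyz2* encodes lysozyme and is also a macrophage gene. It was 415.05 to 440.55 FPKM in WT against 110.57 to 162.03 in KO-labelled MPPs. The median change of those tested was -0.07. None was called by limma in CD115- CDPs or CLPs, where 1 and 4 of 9 tested had an unadjusted p under 0.05 in either direction. In the lower direction alone, so did 733 of all 12229 tested genes in CD115- CDPs and 2003 of 12339 in CLPs. These counts therefore cannot be compared directly with those of the list. *Srgn*, the proteoglycan that holds azurophil proteases in the granule, was 732.44, 794.22 and 767.13 FPKM in WT against 1101.04, 956.51 and 602.25 in KO-labelled MPPs, on both sides of the WT range. *Ms4a3*, a marker of granulocyte and monocyte progenitors, was 19.92 to 22.91 against 13.50 to 30.93 FPKM there, and it was 23.20 and 29.39 FPKM in the CD115- CDP libraries numbered 3 against 2.5 to 4.69 in the other 4.

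Of 11 regulators of granulopoiesis all had a negative change in MPPs with a median of -0.53. None was called by limma, 7 had an unadjusted p under 0.05, as did 2449 of all 12372 tested genes in the lower direction, and 3 passed on the adjusted p alone with less than the required fold. *Csf3r*, the receptor of granulocyte colony-stimulating factor, was 60.24 to 61.44 FPKM in WT against 34.78 to 40.43 in KO-labelled MPPs (-0.70 ± 0.09, limma adjusted p of 0.0146). *Gfi1*, a repressor needed for neutrophil maturation, was 19.49 to 22.59 against 11.20 to 13.19 FPKM (-0.73 ± 0.11, 0.026), and *Cebpa* was 49.61 to 50.21 against 33.58 to 34.71 FPKM (-0.53 ± 0.08, 0.0204). *Cebpe*, the factor known to drive specific granule genes, was 8.22, 7.97 and 8.87 against 7.06, 4.53 and 3.62 FPKM in MPPs (-0.66 ± 0.21, limma adjusted p of 0.136). The groups did not overlap for any of these 4 genes. In CLPs *Irf8*, which encodes a factor of monocytes and dendritic cells that restrains neutrophil development, was called lower, at 992.00 to 1131.82 FPKM in WT against 147.14 to 189.51, and *Cebpa* fell by 0.92 ± 0.16 with a limma adjusted p of 0.00603. *Cebpe* was 0.96 to 2.56 FPKM in WT against 0.43 to 1 in KO-labelled CLPs (-0.68 ± 0.23, 0.0846, or 0.0333 with the block). *Csf3r* was 6.25 to 11.31 FPKM in WT and 12.49 to 13.56 in KO-labelled CLPs (limma adjusted p of 0.0964, or 0.044 with the block).

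The genes whose profile over the 18 libraries was most like that of a class were found among 9873 genes by the Pearson correlation of log2(FPKM + 1) with the mean of the class. For the specific granule genes they were *Cd177* (r = 0.988), *Chil3* (0.971), *Itgb2l* (0.971), *Wfdc21* (0.969) and *Mmp9* (0.962). For the S100 genes they were *Cd177* (0.988), *Lrg1* (0.978), *Wfdc21* (0.977), *Itgb2l* (0.974) and *Mmp9* (0.971). The lists shared 4 of their 5 genes. For the azurophil genes they were the chemokine gene *Ccl9* (0.970), the hexokinase gene *Hk3* (0.966), *Igsf6* (0.949), *Hp* (0.947) and the Fc receptor gene *Fcgr3* (0.946). The points share libraries and fall into 3 populations, so these values describe likeness only.

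Markers of other cells were followed beside the members, and only some of them moved with them. In MPPs *Ly6g*, a defining surface marker of neutrophils, was 9.27 to 10.59 FPKM in WT against 1.58 to 2.90 in KO-labelled libraries, and *Retnlg* was 69.34 to 82.79 against 16.27 to 31.73 FPKM. Of 10 mature neutrophil markers 3 were called lower in MPPs, *Ly6g*, *Retnlg* and *G0s2*. Of all tested genes 1.32% were called lower there, which applies to the other marker lists in MPPs too. *Il1r2* was 3.87 to 12.77 in WT against 9.92 to 83.79 FPKM, and *Trem1* was 3.09 to 4.08 against 1.65 to 11.11 FPKM. The groups overlapped for *Cxcr2* and *Fpr1*. The summed level of the 10 markers was 134.6 to 145.5 FPKM in WT and 62.5 to 137.4 in KO-labelled MPPs. *Il1r2* alone made up 66.22 and 83.79 FPKM of the sums of KO 1 and KO 2, which were 137.4 and 129.2 FPKM. The sums thus hide the fall of other markers in the list. Erythroid genes, 6 of 7 called lower, summed to 373 to 398 against 32.9 to 59.5 FPKM, and monocyte genes, 3 of 5 tested called lower, to 111.1 to 126.2 against 48.3 to 68.6 FPKM. Of 6 genes of eosinophils, basophils and mast cells 2 were called lower, *Cpa3* and *Mcpt8*, and their sum was 162.3 to 195.9 against 57.1 to 137.1 FPKM. In CLPs WT 2, the library highest for the specific granule genes, was also highest for *Retnlg*, at 28.48 FPKM against 7.40 and 2.86 in WT 1 and WT 3, and for *Ly6g*, at 3.57 against 0.61 and 0.97 FPKM. *Ly6g* was 0.06 to 0.40 FPKM in KO-labelled CLPs. The 10 neutrophil markers summed to 23.4 to 62.1 FPKM in WT against 39.1 to 51.5 in KO-labelled CLPs. *Il1r2* made up 2.78 to 4.06 FPKM of these sums in WT and 15.76 to 21.93 FPKM in KO-labelled CLPs. *Il1r2* and *Trem1* were called higher there, as were 83 of all 12339 tested genes. Monocyte genes summed to 176.8 to 208.6 FPKM in WT and 12.8 to 22.8 in KO-labelled CLPs, and erythroid genes to 34.8 to 57.0 against 5.7 to 9.61 FPKM. In CD115- CDPs WT 3 was highest for *Ly6g*, *Retnlg* and *Lyz2*, at 9.92, 142.63 and 848.79 FPKM against 0.24, 3.57 and 45.98 in WT 1, and the monocyte genes summed to 134.6 to 1217 FPKM in WT and 27.4 to 191.3 in KO-labelled libraries. With the block *Csf1r*, *Ly6c2*, *Ccr2*, *F13a1* and *Cx3cr1* were called lower in CD115- CDPs and *Fcgr1* was not, beside 1.46% of all tested genes. The neutrophil markers summed there to 48.4 to 207.7 FPKM in WT and 78.8 to 156.9 in KO-labelled libraries. *Il1r2* made up 3.15 to 52.34 FPKM of these sums in WT and 9.83 to 117.97 FPKM in KO-labelled libraries. None of the neutrophil markers was called there without the block. *Fpr2* was listed at 0 in WT 1 of CD115- CDPs and in KO 1 of CLPs, and *Fpr1* in WT 2 of CD115- CDPs and KO 3 of CLPs. The part of these cells in the differences of the granule genes was not tested.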

How the data were processed

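RNA-seq tables of MPPs, CD115- CDPs and CLPs were analysed, with 3 WT and 3 KO-labelled libraries each. The authors sequenced single-end reads of 50 bases, filtered them with SOAPnuke, and made the deposited FPKM with Bowtie2 2.2.5 and RSEM 1.2.12, rounded to 2 decimals. The submitters' processing notes also name HISAT2 2.0.4 and mm10. Counts were not used here, so the count tests of the study were not repeated, and no per-sample column was left unused.

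For each population, log2(FPKM + 1) was fitted with limma 3.58.1 in R 4.3.3, keeping genes whose 6 libraries averaged 0.5 FPKM or more, with a trend and Benjamini-Hochberg adjustment over all genes. A call needed at least a 2-fold change and an adjusted p not above 0.05. The scripts were tested on simulated data. Symbols were matched exactly. Labels say that libraries are separate samples but not from how many animals, so p-values measure the spread between these libraries.

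The replicate numbers shared by the labels were checked by correlating deviations from the group means. Same-numbered libraries had r of 0.437, 0.671 and 0.79 in CD115- CDPs and of 0.4, 0.329 and 0.131 in CLPs. All were over 0.1, so the numbers were taken as pairs there. For the members the blocked value is given where it changes a call, and for the lists of other genes it is given in part only. Some libraries of unlike number were as alike, with r of 0.234 for WT 3 and KO 2 of CLPs. WT 2 and KO 1 of CD115- CDPs had 0.663. In MPPs the numbers were not taken as pairs, with r of 0.0382, 0.482 and 0.472. The labels do not say that equal numbers mark pairs, so the blocked calls rest on this choice.

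Depth comes from the regular steps of low FPKM once each is multiplied by effective length, over genes whose only transcript has a GENCODE length. Intervals cover the spread between libraries only. The genes named are the 10 members, lists of related genes and cell markers, *Trim33* and the 5 genes most like each class; individual genes from the lists were chosen after their values were seen. The members and lists were chosen with earlier results of these data known. Alternatives were a pseudocount of 0.1, no filter, a filter at 5 FPKM, median-ratio scaling, the block, no minimum fold change and leaving out libraries. Python 3.11.15, pandas 2.3.3 and numpy 2.4.6 were used. Promoters and positions are from RefSeq for GRCm38.p6, in which all 10 members matched.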

Additional observations from a re-analysis of the deposited data

Results flagged for a closer look

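*Mpo* lay in opposite directions in 2 populations, every KO-labelled library below every WT library in MPPs and above in CLPs. Of all tested genes 23.3% lay below in MPPs and 15.3% above in CLPs. Neither change was called, with limma adjusted p of 0.0743 and 0.13 without the block. After median-ratio scaling the MPP groups of *Mpo* overlapped. The log2 change in CLPs minus that in MPPs was 0.95. In the fit with a term for each replicate number this difference had a limma adjusted p of 0.00695. The test over all populations had 0.0166, and 8.67% of all tested genes passed it. Without that term the 2 limma adjusted p were 0.621 and 0.775.

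The log2 change of *Elane* in CLPs minus that in MPPs was -1.12. This difference had a limma adjusted p of 0.0364 in the same blocked fit and of 0.622 without the block. The blocked limma test over all populations had an adjusted p of 0.0557 for *Elane*. In that fit the difference between CLPs and MPPs passed for 1842 of all 12421 tested genes. With 3 libraries in each group no single library was tested for standing apart.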

How the results depend on the processing

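In MPPs, where 4 members were called, 2 were called with no filter on expression, 1 with a filter at 5 FPKM and 1 after median-ratio scaling. Leaving out single libraries gave 0 to 6. The numbers were not taken as pairs in MPPs, with correlations of same-numbered deviations of 0.0382, 0.482 and 0.472. There the replicate block gave 3 (*Camp* was lost, at a limma adjusted p of 0.0543). In CD115- CDPs, with 0 called over all libraries, 4 were called with the block and 3 without it once both libraries numbered 3 were left out, and leaving out single libraries gave 0 each time. Over all genes the block raised the calls there from 8 lower and 5 higher to 178 and 46. In CLPs, with 0 called, the replicate block gave 7, a filter at 5 FPKM 1, and leaving out single libraries 0 to 3. The block without both libraries of 1 number gave 6, 6 and 7. The interaction passed for 0 members, for 1 with the replicate block, and for 0 to 3 when single libraries were left out. In MPPs the count of genes called lower was 163 without and 163 with the block (shared genes were not counted). It was 548, with 368 higher, without KO 3 and 43 to 47 without 1 of the WT libraries. The cause was not tested.

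Some signs turned, none of a change called over all libraries. *Ltf* and *S100a8* in CD115- CDPs, called higher without both libraries numbered 3, were among them. Median-ratio scaling gave *Elane* 0.09 in MPPs and *Mpo* 0.02 in CD115- CDPs. The block without both libraries numbered 1 gave 0.00 for *Mpo*, -0.04 for *Ltf*, -0.08 for *Ngp*, -0.22 for *S100a8* and -0.29 for *S100a9* in CD115- CDPs. Without those numbered 2 it gave *Mpo* 0.12 and *Elane* 0.30 there and *Elane* 0.01 in MPPs, and without those numbered 3 *Elane* 0.19 and *Prtn3* 0.04 in MPPs. Leaving out single libraries, *Elane* ran from -0.28 to 0.26 and *Prtn3* from -0.35 to 0.03 in MPPs, and *Ctsg* from -0.20 to 0.31 in CLPs. In CD115- CDPs *Mpo* ran from -0.99 to 0.75, *Elane* from -1.12 to 0.78, *Prtn3* from -1.08 to 0.64, *Ctsg* from -0.72 to 1.07, *Ngp* from -0.04 to 1.87, *S100a8* from -0.27 to 1.82 and *S100a9* from -0.34 to 1.89.

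Depth does not limit the members, which all had many reads. The spread of CD115- CDPs does, with standard errors of 0.78 to 1.07 on the log2 scale without the block.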
